A study of Pyrus hybrid rootstock with 24 samples.

Results

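The expression of 38 pear genes that stayed higher in heterografted than in homografted graft unions through healing was examined. They were chosen by the deposited FPKM values themselves (fragments scaled to gene length and library depth). A gene was taken if it had at least 1 FPKM in 3 or more of the 24 libraries and was above 0 in at least 1 homograft library. At each of days 1, 5, 9 and 30 after grafting (DAG), the lowest of its 3 heterograft values also had to exceed the highest of its 3 homograft values, with a mean log2(FPKM + 1) at least 0.5 higher. Of 42812 genes in each library, 26895 passed the filter on low values and 26865 of these were above 0 in a homograft. Of these, 60 lay above the homografts without overlap at all 4 days, and 40 of the 60 had the minimum difference. Pbr042200.2 and Pbr009936.1, which the study itself describes or plots, were dropped, which left 38. All heterograft minus homograft differences of the 38 genes are therefore a description of how they were selected. Nothing is read from a test of them, and the counting intervals and counts of calls given below are not corrected for this choice.

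Heterografts were unions of a "QAUP-1" scion (Pyrus ussuriensis Maxim.) on a "Qingzhen D1" rootstock (Pyrus communis L. × Pyrus bretschneideri R.), and homografts joined "Qingzhen D1" to itself. Both were micrografted from tissue-culture plantlets, and stem tissue of the union was collected at 1, 5, 9 and 30 DAG, with 3 libraries for each of the 8 conditions. Group membership came from the sample titles, whereas the series' design text names the heterograft partners in the reverse order. The graft type and the genotype of the scion change together in this design and cannot be told apart, and RNA of scion and rootstock was not separated. In such bulk tissue, fewer cells of a type and less RNA per cell cannot be told apart either.

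When a graft is made, cut cells on both sides die, living cells below them proliferate into callus, and the callus bridges the wound before cambium and then xylem and phloem reconnect. A homograft meets only the wound, whereas a heterograft also brings together different genotypes, so its union holds transcripts of both. The gene identifiers are those of the pear gene models (Pbr numbers), which the deposited tables do not pair with names, so the 38 genes are described by identifier, coding length and level and are given no function. No marker of stem tissue could be checked for the same reason.

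Because FPKM values came out as whole multiples of the worth of 1 read, the reads behind each value were recovered. Totals over genes ranged from 10373751 to 13371958 per heterograft library and from 11002192 to 13629999 per homograft library. The 38 genes were short and weakly expressed. Their median coding length was 717 bp (177 to 3171 bp), against 1101 bp over all tested genes, and 27 of 38 were shorter than that. Their median heterograft level was 3.92 FPKM, against 10.8 FPKM over all tested genes. By the rule, none of the 38 could be at 0 in a heterograft library, since each value there had to exceed the homograft values of its day. Between 10 and 17 of them were at 0 in each homograft library.

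The 38 genes ranged widely in how much homograft transcript they had, as the heat map of all members shows. For 16 genes, heterografts held 70 to 984 reads over their 12 libraries and homografts only 1 to 12, a ratio per library read of 10.2 to 529 (median 102). Each of these was at 0 in 5 to 11 of the 12 homograft libraries, so for them expression in homografts means a few reads. A further 11 genes had 160 to 1010 reads in heterografts and 17 to 75 in homografts, with ratios of 7.39 to 30.2 (median 16.2). The last 11 genes had 324 to 5904 reads in heterografts and 129 to 1993 in homografts, with ratios of 1.96 to 11.3 (median 3.01), and none of them was at 0 in any homograft library. The limits between these ranges were set after the values were seen.

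**Figure D1:**
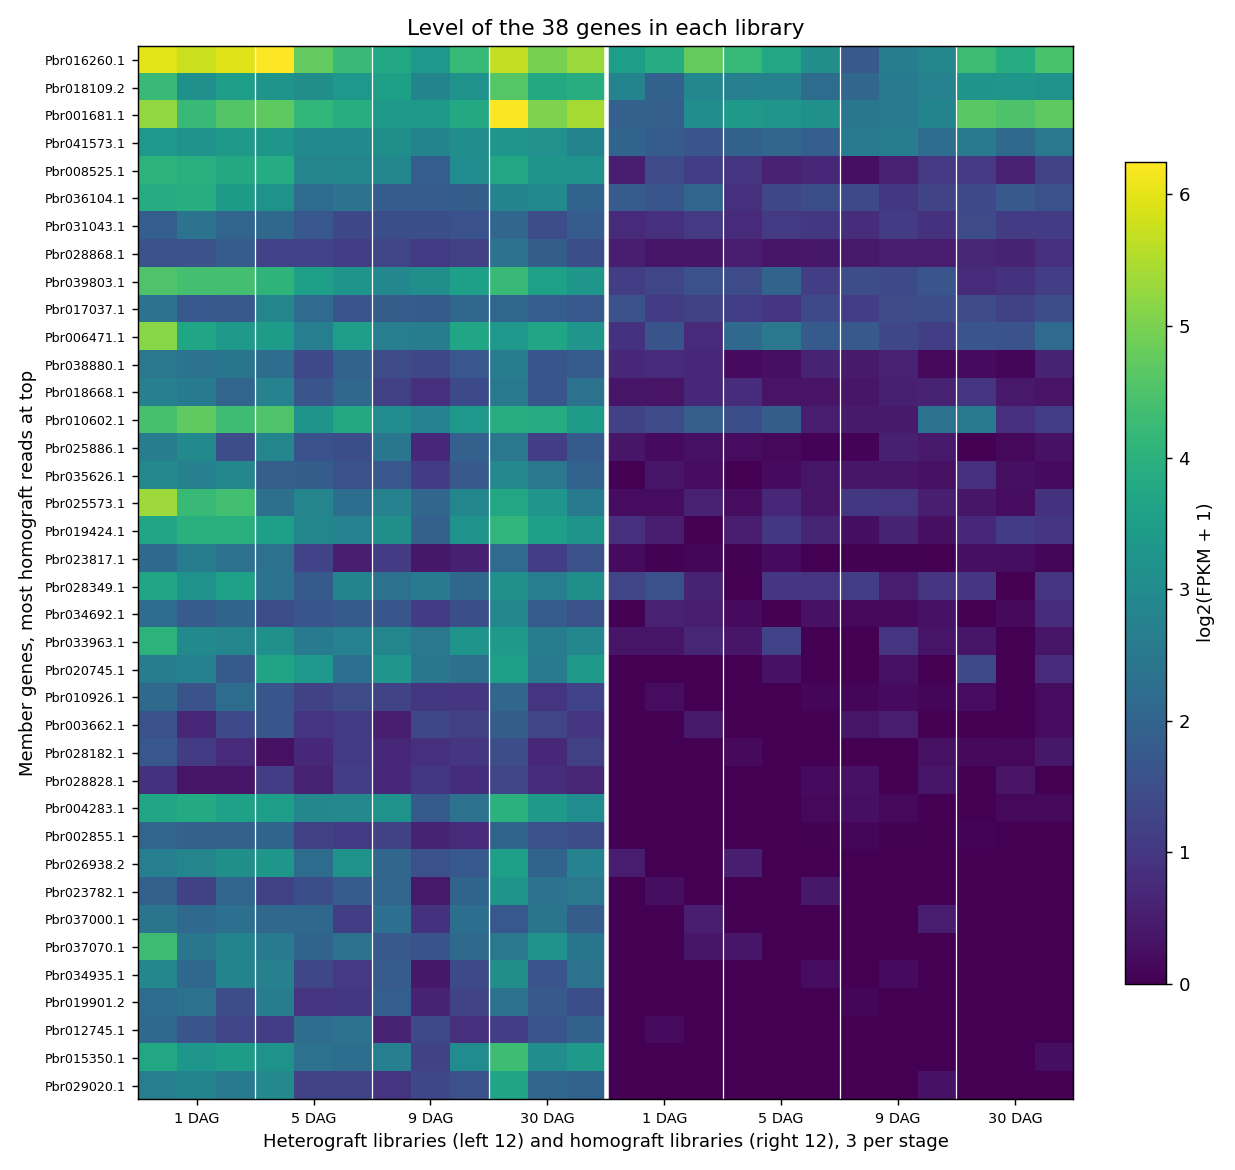
Level of each of the 38 genes (rows) in each of the 24 libraries (columns, heterografts left of homografts, by days after grafting), as log2(FPKM + 1) in colour. All heterograft columns are above 0 for all 38 genes, which the rule required, and 10 to 17 genes are at 0 in each homograft column.

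Among the genes nearly without homograft reads, Pbr004283.1 (792 bp coding length) had the largest mean difference over the 4 days, 3.11 on the log2(FPKM + 1) scale. In heterografts it had 12.1, 13.1 and 10.8 FPKM at day 1, 10.3, 6.41 and 6.69 FPKM at day 5, 8.12, 2.39 and 4.02 FPKM at day 9, and 15, 9.48 and 7.18 FPKM at day 30. In homografts it did not exceed 0.185 FPKM in any library and was at 0 in all 3 libraries of day 1. The groups were thus far apart at each day, and the lowest heterograft library, at day 9, still stood above 10-fold over any homograft library. In reads, heterografts had 984 and homografts 6, a ratio of 167 (95% counting interval 76.3 to 455). At day 1 there were 328 reads in heterografts and 0 in homografts. This is 109-fold higher when the 3 homograft libraries together are set to a floor of 3 reads, and the lower 95% counting limit was 87.9. Fold changes on the log2(FPKM + 1) scale understate the change of such low genes, and the counting intervals cover counting error only.

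Pbr015350.1 (462 bp) was the extreme in ratio, with 521 reads in heterografts and 1 in homografts (ratio 529, 95% counting interval 94.6 to 2.1e+04). Its heterograft levels were 12.3, 8.74 and 10.05 FPKM at day 1, 8.11, 4.03 and 3.77 FPKM at day 5, 5.50, 1.36 and 7.09 FPKM at day 9, and 18.9, 7.36 and 9.39 FPKM at day 30. The 1 homograft read came from replicate 3 of day 30 (0.182 FPKM), and without that read the gene would have been left out as silent in homografts. With the homograft libraries of a day set to the floor of 3 reads, it was 54.7-fold higher at day 1, 28.4-fold at day 5 and 27.7-fold at day 9. The lower 95% counting limits at these days were 44.0, 22.6 and 22.0.

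Pbr029020.1 (351 bp) also rested on a single homograft read, in replicate 3 of day 9 (0.238 FPKM), against 196 reads in heterografts (ratio 199, 95% counting interval 35.3 to 7.9e+03). Heterografts had 5.50, 6.12 and 4.99 FPKM at day 1, 6.64, 1.45 and 1.42 FPKM at day 5, 0.904, 1.54 and 1.92 FPKM at day 9, and 11.6, 3.15 and 2.98 FPKM at day 30. Replicate 1 thus stood apart at days 5 and 30. Pbr020745.1 (363 bp) had 343 reads in heterografts and 12 in homografts, a ratio of 29.0 (95% counting interval 16.4 to 56.7). Its heterograft levels were 5.32, 5.68 and 2.41 FPKM at day 1, 11.5, 9.10 and 3.88 FPKM at day 5, 8.53, 4.47 and 3.98 FPKM at day 9, and 10.5, 5.01 and 9.27 FPKM at day 30. Of its 12 homograft reads 10 came from day 30, where the libraries had 1.66, 0 and 0.693 FPKM, and its largest difference fell on day 5 (2.98) rather than on day 1 (2.39).

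On the log2(FPKM + 1) scale, the differences of Pbr037000.1 and Pbr028828.1 varied least between days, with those of Pbr018109.2 and Pbr028868.1. Pbr037000.1 (204 bp) had differences of 2.10, 1.78, 1.65 and 1.98 at days 1, 5, 9 and 30, from 89 reads in heterografts and 2 in homografts (ratio 45.2, 95% counting interval 12.2 to 379). Pbr028828.1 (624 bp) had the smallest ratio of the 16 genes with so few homograft reads, 10.2 (95% counting interval 4.68 to 26.2), from 70 reads in heterografts and 7 in homografts. It was also weak in heterografts, where its levels spanned 0.275 to 1.49 FPKM over the 12 libraries, against 0 to 0.268 FPKM in homografts. The log2(FPKM + 1) scale compresses changes at such levels. In reads, its ratio was 21.3 at day 5, 4.85 at day 9 and 10.2 at day 30, with overlapping 95% counting intervals. At day 1 its heterograft libraries had 0.844, 0.275 and 0.281 FPKM and its homograft libraries were all at 0, so the separation there rested on a few reads.

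In the range of 13 to 100 homograft reads, Pbr025573.1 (567 bp) varied most between days. Heterografts had 39.0, 17.9 and 19.5 FPKM at day 1, then 3.97, 6.12 and 3.80 FPKM at day 5, 5.88, 3.18 and 6.29 FPKM at day 9, and 12.4, 8.5 and 4.88 FPKM at day 30. Homografts had 0.155, 0.149 and 0.479 FPKM at day 1, 0.160, 0.616 and 0.288 FPKM at day 5, 1.04, 0.931 and 0.442 FPKM at day 9, and 0.304, 0.145 and 0.888 FPKM at day 30. All 3 heterograft libraries of day 1 exceeded every later one, and the difference on the log2 scale was 4.31 at day 1, 2.04 at day 5, 1.74 at day 9 and 2.69 at day 30. In reads, there were 863 in heterografts and 39 in homografts, a ratio of 22.5 (95% counting interval 16.3 to 31.8).

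Pbr019424.1 (426 bp) and Pbr033963.1 (312 bp) were more even. Pbr019424.1 had 12, 14.5 and 14.4 FPKM at day 1, 10.6, 6.36 and 5.83 FPKM at day 5, 7.64, 2.75 and 8.15 FPKM at day 9, and 16.3, 10.6 and 8.43 FPKM at day 30 in heterografts, against 0 to 1.16 FPKM in homografts. Its ratio of reads was 17.0 (95% counting interval 12.1 to 24.7). Pbr033963.1 had its highest heterograft level in replicate 1 of day 1 (15.5 FPKM) and otherwise 4.62 to 9.22 FPKM, against 0 to 1.40 FPKM in homografts, with a ratio of 19.0 (11.7 to 33). Differences of this gene stayed between 2.28 and 2.83 at the 4 days.

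Pbr023817.1, the longest of the 38 genes (3171 bp), had 1010 reads in heterografts and 34 in homografts, a ratio of 30.2 (95% counting interval 21.5 to 43.8). Heterografts had 3.40, 5.23 and 4.09 FPKM at day 1, 3.99, 1.39 and 0.444 FPKM at day 5, 1.18, 0.312 and 0.456 FPKM at day 9, and 3.54, 1.25 and 1.91 FPKM at day 30, against at most 0.190 FPKM in any homograft library. Its heterograft libraries of days 5 and 9 differed severalfold among replicates, and the difference on the log2 scale was 2.26 at day 1 but 0.66 at day 9. Pbr010602.1 (201 bp) had 395 reads in heterografts and 52 in homografts, a ratio of 7.72 (5.77 to 10.5), with 5.82 to 25.7 FPKM over the heterograft libraries and 0.365 to 4.72 FPKM over the homograft libraries.

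Among the genes with more than 100 homograft reads, Pbr016260.1 (1110 bp) was the most abundant. Heterografts had 63.0, 52.4 and 60.4 FPKM at day 1, 75.1, 26.1 and 18 FPKM at day 5, 12.2, 9.01 and 17.2 FPKM at day 9, and 50.1, 30.4 and 38.7 FPKM at day 30. Homografts had 10.1, 13.6 and 26.2 FPKM at day 1, 17.1, 12.5 and 7.57 FPKM at day 5, 2.38, 5.16 and 6.40 FPKM at day 9, and 18.3, 13.6 and 20.9 FPKM at day 30. Both graft types thus had their lowest mean at day 9, with the heterografts above at each day, although the heterograft libraries of day 9 overlapped the homograft libraries of day 1. The ratio of reads was 3.01 (95% counting interval 2.86 to 3.17).

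Pbr001681.1 (441 bp) had 37.0, 17.9 and 22.8 FPKM at day 1, 24.9, 16.7 and 13.9 FPKM at day 5, 9.18, 9.19 and 12.7 FPKM at day 9, and 73.4, 31.9 and 41.5 FPKM at day 30 in heterografts. Homografts had 2.79, 2.68 and 7.39 FPKM at day 1, 9.48, 8.52 and 7.77 FPKM at day 5, 4.49, 4.79 and 6.07 FPKM at day 9, and 24, 21.9 and 25.1 FPKM at day 30. Both graft types had their highest mean at day 30, and the difference was 2.40 at day 1 but 0.99, 0.89 and 0.93 at days 5, 9 and 30. The ratio of reads was 2.5 (95% counting interval 2.28 to 2.75).

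Pbr039803.1 (741 bp) had 22.2, 19.8 and 20.0 FPKM at day 1, 15.7, 10.5 and 8.38 FPKM at day 5, 6.53, 7.66 and 10.5 FPKM at day 9, and 17.7, 11 and 8.88 FPKM at day 30 in heterografts, against 0.698 to 2.95 FPKM in homografts (ratio 8.34, 95% counting interval 7.10 to 9.85). Pbr006471.1 (402 bp) had 34.3, 11.8 and 9.37 FPKM at day 1 in heterografts and 5.15 to 11.8 FPKM at the later days, against 0.675 to 4.56 FPKM in homografts (ratio 4.91, 4.05 to 5.98). The day 1 level of Pbr006471.1 thus leaned on replicate 1. Pbr018109.2 (927 bp) had the smallest ratio of all, 1.96 (1.79 to 2.14), with 6.12 to 23.2 FPKM over the heterograft libraries and 2.82 to 8.89 FPKM over the homograft libraries, which overlap once days are pooled although they do not within a day. Pbr028868.1 (3072 bp) had 1.08 to 4.17 FPKM in heterografts and 0.275 to 0.819 FPKM in homografts (ratio 4.51, 3.84 to 5.32), with its highest mean in both graft types at day 30.

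**Figure D2:**
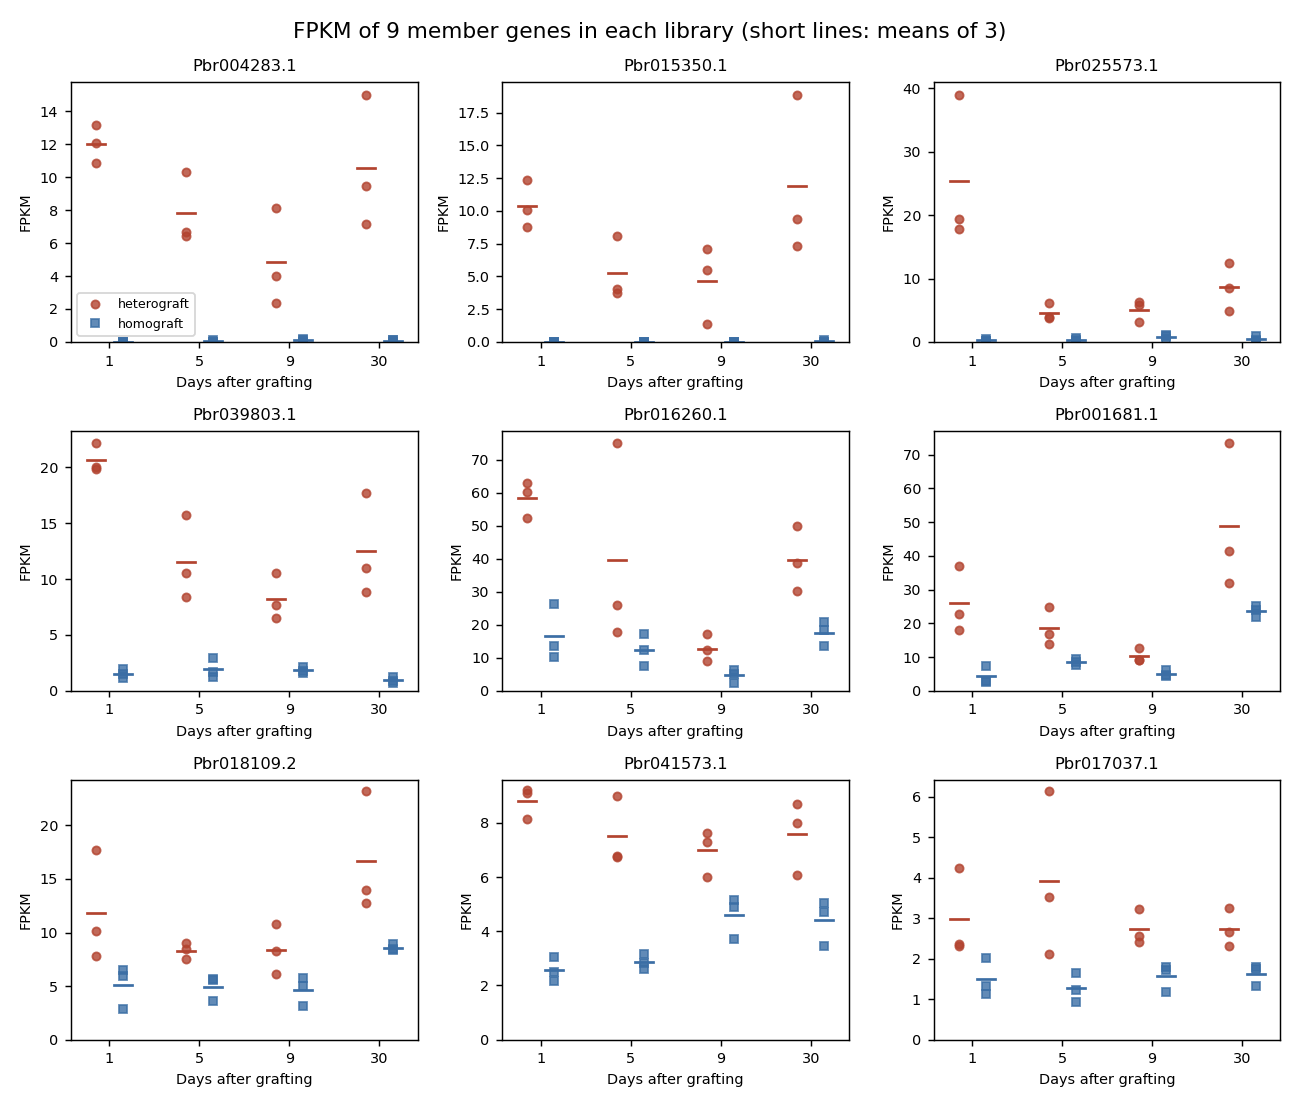
FPKM (linear axes that start at 0) of 9 of the 38 genes at 1, 5, 9 and 30 days after grafting, with 1 circle for each heterograft library, 1 square for each homograft library and a short line for each mean of 3. Heterograft points lie above homograft points at each day, Pbr025573.1 is highest at day 1 in heterografts (17.9 to 39.0 FPKM), and Pbr016260.1 has its lowest mean at day 9 in both graft types.

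The genes nearest the minimum difference show how the choice falls. Pbr017037.1 and Pbr041573.1 were just inside, with smallest differences of 0.51 (day 30) and 0.52 (day 9). Pbr017037.1 (744 bp) had 3.24, 2.66 and 2.31 FPKM in heterografts at day 30 and 1.74, 1.33 and 1.8 FPKM in homografts. Pbr041573.1 (1215 bp) had 7.64, 6.0 and 7.30 FPKM in heterografts at day 9 and 4.89, 5.15 and 3.72 FPKM in homografts. Just outside were Pbr038139.1 and Pbr036084.1, whose smallest differences were 0.49 and 0.47 and which also stood above the homografts without overlap at all 4 days. Pbr036084.1 had 25.6 to 48.6 FPKM in heterografts and 16.0 to 26.2 FPKM in homografts, and Pbr038139.1 had 1.14 to 3.13 FPKM in heterografts and 0.443 to 1.16 FPKM in homografts.

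The size of the difference was followed over healing. The median difference of the 38 genes was 2.09 at day 1 (0.53 to 4.31), 1.56 at day 5 (0.63 to 3.06), 1.20 at day 9 (0.52 to 2.58) and 1.75 at day 30 (0.51 to 3.50), against medians of 0.06, −0.03, 0.02 and 0.01 over all tested genes. Day 1 held the largest difference of 28 of the 38 genes and day 9 the smallest of 27, so their separation was widest early and narrowest at day 9. The differences of all tested genes also spread most at day 1 and least at day 9. With the outermost few percent at each end left out, they ran from −0.88 to 1.07 at day 1 and −0.70 to 0.71 at day 5. At day 9 they ran from −0.45 to 0.57, and at day 30 from −0.48 to 0.64. The order of the days is therefore not read as a trait of the 38 genes. Homografts had no read at all for 9, 6, 5 and 8 of the 38 genes at days 1, 5, 9 and 30. With these at the floor of 3 reads, the median ratio of reads was 16.7 at day 1, 12.8 at day 5, 8.63 at day 9 and 12.5 at day 30, and the lowest ratio of any gene at a day was 1.52, at day 9.

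**Figure D3:**
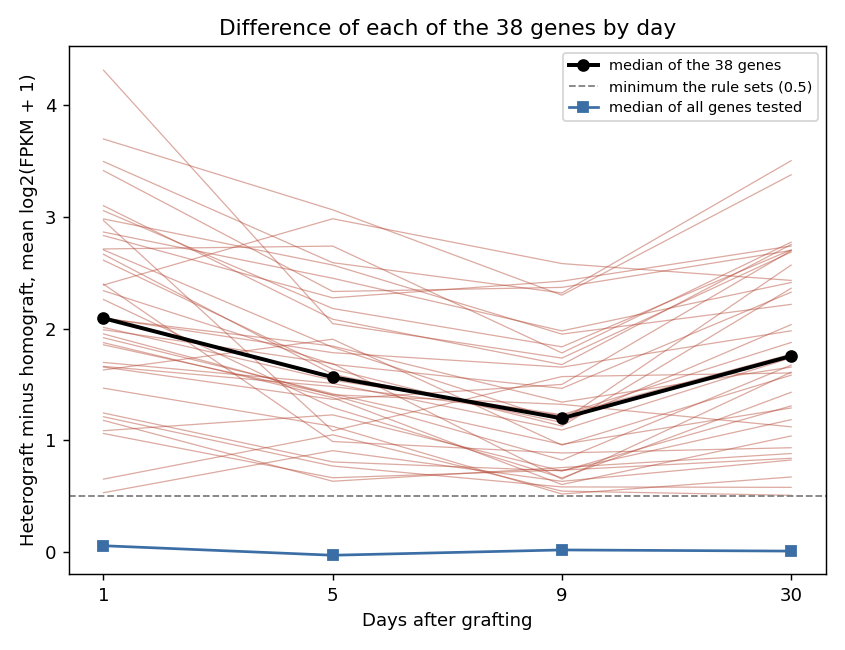
Heterograft minus homograft difference in mean log2(FPKM + 1) of each of the 38 genes at 1, 5, 9 and 30 days after grafting (thin lines), with their median (circles, 2.09, 1.56, 1.20 and 1.75), the median of all tested genes (squares) and the minimum of 0.5 that the choice set (dashed). Day 1 holds the largest difference of 28 genes and day 9 the smallest of 27.

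By the study's own kind of threshold (log2 fold change above 1 and unadjusted p below 0.05, here with limma), 36 of the 38 genes were called higher in heterografts at day 1, where 2.8% of all tested genes were. At day 5 there were 32 genes (0.948% of all tested genes), at day 9 23 genes (0.357%) and at day 30 31 genes (0.547%). With limma's Benjamini-Hochberg adjusted p below 0.05, the counts were 36 at day 1 (8.7% of all tested genes), 26 at day 5 (0.48%), 9 at day 9 (0.0372%) and 25 at day 30 (0.227%). Since the same differences chose the genes, nothing is read from these counts. For comparison, 19.1%, 8.62%, 5.64% and 6.8% of all tested genes lay higher in heterografts without overlap at days 1, 5, 9 and 30, a condition that the 38 genes meet at each day by choice.

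To obtain a measure that the choice had not used, the same rule was applied to 3 of the 4 days (18 libraries) and the remaining day was then read. Of 38 genes chosen without day 1, 37 (97.4%, against 19.1% of all tested genes) lay above the homografts without overlap at day 1. Limma called 36 of them higher with adjusted p below 0.05 (94.7%, against 8.7%). Of 49 genes chosen without day 5, 39 (79.6%, against 8.62%) did not overlap at day 5 and 25 (51.0%, against 0.48%) were called. Of 50 chosen without day 30, 37 (74.0%, against 6.8%) did not overlap at day 30 and 24 (48.0%, against 0.227%) were called. At the day left out, 38 of 38 genes were higher at day 1, 46 of 49 at day 5 and 48 of 50 at day 30. The median differences of all tested genes at these days were 0.06, −0.03 and 0.01. Many of these genes are near 0 in homografts at every day, which leaves them little room to be anything but higher. Those with up to 12 homograft reads at the choosing days gave 14 of the 36 calls at day 1. They gave 12 of 25 at day 5 and 13 of 24 at day 30. The shares of all tested genes are not matched for homograft level. Among those with more than 100 homograft reads at the choosing days, a limit set after the values were seen, 12 of 12 were higher at day 1 (11 called), 14 of 15 at day 5 (5 called) and 13 of 14 at day 30 (3 called).

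Day 9 was the least alike. Of 74 genes chosen on days 1, 5 and 30, 72 were higher in heterografts at day 9. Of the 74, 42 did not overlap (56.8%, against 5.64% of all tested genes). Only 9 (12.2%, against 0.0372% of all tested genes) were called with limma's adjusted p, and 47 had an unadjusted p below 0.05. Of the 31 of these genes with more than 100 homograft reads at the choosing days, 30 were higher, 16 did not overlap and 2 were called. The median difference of these genes at the day left out was 2.09 at day 1, 1.40 at day 5, 0.64 at day 9 and 1.48 at day 30. The count of 9 at day 9 depended on single libraries of that day. It was 2 without homograft replicate 1, 4 without homograft replicate 2, 5 without heterograft replicate 1 and 4 without heterograft replicate 3. In these fits 0.0112%, 0.0186%, 0.0261% and 0.0186% of all tested genes were called. The fit shares 1 estimate of the spread across all 24 libraries, those of the choosing days included. With only the 6 libraries of the day, limma called 34, 13, 0 and 7 genes at days 1, 5, 9 and 30, against 5.61%, 0.208%, 0% and 0.0595% of all tested genes. In the same fit 38, 38, 41 and 39 of the genes were higher with an unadjusted p below 0.05, against 15.6%, 6.34%, 2.89% and 4.05% of all tested genes.

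**Figure D4:**
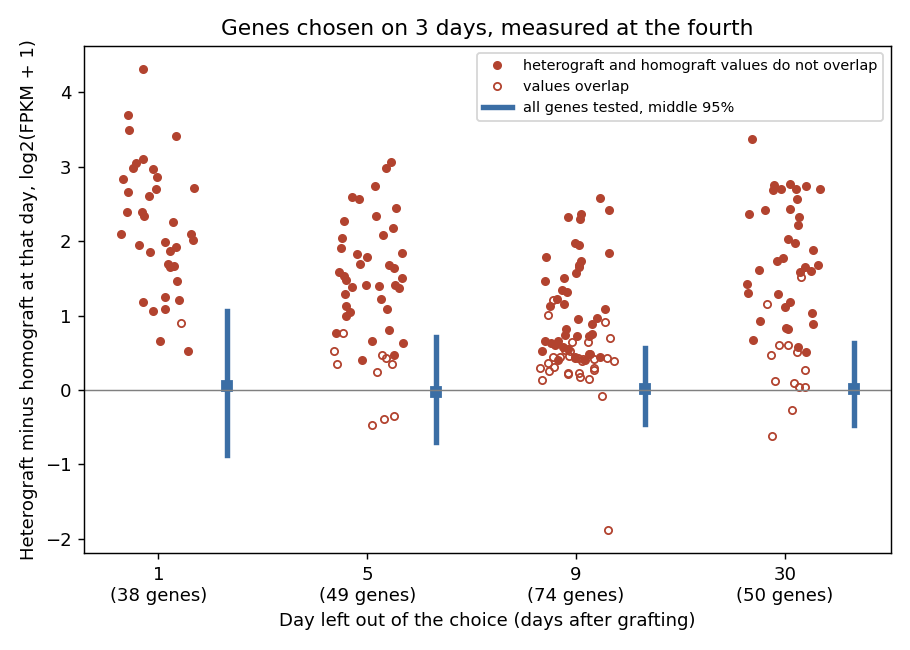
Heterograft minus homograft difference in mean log2(FPKM + 1) at the day left out, 1 circle for each gene chosen on the other 3 days (38, 49, 74 and 50 genes for days 1, 5, 9 and 30), filled where the groups do not overlap and open where they do, beside the median (square) and middle 95% (bar) of all tested genes. The chosen genes have medians of 2.09, 1.40, 0.64 and 1.48, and 37, 39, 42 and 37 of them do not overlap. Of all tested genes, 19.1%, 8.62%, 5.64% and 6.8% do not overlap in that direction.

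The change with day within a graft type was not used to choose the genes, although the choice favours genes whose replicates vary little, which the test also uses. In heterografts, 24 of the 38 genes (63.2%) changed between days by limma's F test (adjusted p below 0.05), against 48.4% of all tested genes. With a pseudocount of 0.1 the count was 12 (31.6%, against 47.3% of all tested genes), and with only the 12 heterograft libraries in the fit it was 14 (36.8%, against 40.3%), so whether the share lay above or below that of all genes depended on the setting. In homografts 3 of 38 (7.89%) changed, against 47.0% of all tested genes, but 26 of the 38 would not have passed the filter on low values in homografts alone, so nothing is read from that share. The 3 genes were Pbr001681.1, Pbr016260.1 and Pbr041573.1, all from the 11 genes with more than 100 homograft reads. None of the 16 genes with up to 12 homograft reads passed the test in homografts, and none of the 11 with 13 to 100 did. The difference in change between graft types was not tested.

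The change in heterografts was mostly towards lower levels at day 9. Relative to day 1, 24 of 38 genes were lower at day 9 (10.7% of all tested genes were) and 0 were higher (16.7%), by limma with adjusted p below 0.05. With a pseudocount of 0.1, 14 genes were lower (10.3% of all tested genes), and with only the 12 heterograft libraries 17 (9.06%). The median change of the 38 genes was −1.08 on the log2(FPKM + 1) scale (36 genes below 0 and 2 above), against 0.09 over all tested genes. At day 5, 6 genes were lower (10% of all tested genes) and 0 higher (11%), with a median of −0.51. At day 30, 4 genes were lower (15.5%) and 2 higher (26.6%), with a median of −0.26, so that the median level at day 30 was again nearer that of day 1. The 38 genes all passed the filter on low values in heterografts alone, and 26 did not in homografts alone. Most were thus members through the heterograft levels tested here. The 30 tested genes at 0 in all homograft libraries also fell at day 9. Of these, 26 were below day 1 and 15 were called lower. The fall is therefore not read as a trait of the 38 genes.

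In homografts, the same 38 genes had median changes of 0.00, 0.04 and 0.04 at days 5, 9 and 30. At day 5, 1 gene was higher than at day 1 (16.6% of all tested genes were) and 0 lower (9.02%). At day 9, 1 was higher (18.6%) and 1 lower (9.04%), and at day 30, 2 were higher (29.4%) and 0 lower (13.6%), by the same limma test. Since 26 of the 38 would not have passed the filter on low values in homografts alone, they had little room to fall. Nothing is read from these medians and counts.

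Pbr025573.1 had the clearest fall with limma, by 2.17 at day 5 (SE 0.31, adjusted p = 6.7e-05), by 2.07 at day 9 (adjusted p = 8.31e-05) and by 1.45 at day 30 (adjusted p = 0.000948). Pbr036104.1 (810 bp) fell by 1.12 at day 5 (limma, adjusted p = 0.00371), by 1.88 at day 9 (2.79e-05) and by 1.12 at day 30 (0.00156) in heterografts. Its heterograft libraries had 13.3, 13.9 and 9.62 FPKM at day 1 and 2.55, 2.56 and 2.62 FPKM at day 9, against 2.5, 2.19 and 3.13 FPKM and 1.63, 1.02 and 1.45 FPKM in homografts. The heterograft level of day 9 was thus within the homograft range of day 1.

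Falls at day 9 also held in heterografts for Pbr004283.1 (−1.27, SE 0.27, limma adjusted p = 0.00159), Pbr023817.1 (−1.69, adjusted p = 0.0006) and Pbr039803.1 (−1.25, adjusted p = 0.000912), whichever 1 library was left out. Pbr029020.1 changed by −1.43 (limma adjusted p = 0.00845), a call lost when only the 12 heterograft libraries were fitted. For Pbr015350.1 the change was −1.18 (SE 0.35, limma adjusted p = 0.0172), but the call was lost without heterograft replicate 2 of day 9 (−0.64) and without heterograft replicate 1 of day 1 (−1.06), and also with only the 12 heterograft libraries (adjusted p = 0.0775). That of Pbr019424.1, −1.13 (limma adjusted p = 0.0100), was lost without the same replicate of day 9 (−0.71) and with a pseudocount of 0.1 (−1.27, adjusted p = 0.122). Pbr020745.1 did not pass the F test in heterografts (adjusted p = 0.224).

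Only Pbr016260.1 was called lower at day 9 in both graft types, by −2.15 in heterografts (SE 0.42, limma adjusted p = 0.000912) and −1.62 in homografts (adjusted p = 0.00759). The homograft call was lost without replicate 3 of day 1 (−1.25). Pbr001681.1 was lower at day 9 in heterografts (−1.20, limma adjusted p = 0.0074) and higher at day 30 in homografts (2.33, adjusted p = 6.62e-06). Its rise of 0.87 at day 30 in heterografts (SE 0.31, limma adjusted p = 0.0305) was lost without heterograft replicate 2 (0.64) or 3 (0.81) of day 1, or replicate 1 of day 30 (0.54), and with only the 12 heterograft libraries (adjusted p = 0.0505). Pbr041573.1 was higher in homografts at day 9 (0.64, SE 0.16, limma adjusted p = 0.00472) and day 30 (0.59, adjusted p = 0.00483), while in heterografts it did not pass the F test (adjusted p = 0.366).

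The 3 heterograft libraries of a day were not equally high in these genes. The mean log2(FPKM + 1) of the 38 genes was 3.11, 2.77 and 2.74 in replicates 1, 2 and 3 at day 1, 2.72, 2.13 and 2.15 at day 5, 2.09, 1.63 and 2.11 at day 9, and 3.05, 2.45 and 2.45 at day 30. Homograft libraries lay between 0.57 and 0.88. Replicate 1 was the highest of the 3 heterograft libraries for 23 of 38 genes at day 1, 29 at day 5 and 33 at day 30, where it was highest for 36.2%, 33.8% and 33.6% of all tested genes. At day 9, replicate 3 was highest for 19 genes and replicate 2 lowest for 27. Most of the genes thus shared their highest library at days 1, 5 and 30. Their sum over a heterograft library spanned 103 FPKM (replicate 2 of day 9) to 440 FPKM (replicate 1 of day 1), against 28.0 to 79.0 FPKM in homografts.

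The 30 tested genes that were at 0 in all 12 homograft libraries were set beside these values. Their mean log2(FPKM + 1) in heterograft replicates 1, 2 and 3 was 1.63, 1.71 and 1.66 at day 1, 1.57, 1.08 and 0.93 at day 5, 0.99, 0.53 and 0.77 at day 9, and 1.59, 1.31 and 1.20 at day 30. As for the 38 genes, replicate 1 was highest at days 5 and 30 and replicate 2 lowest at day 9, but at day 1 replicate 1 was the lowest for the 30 genes and at day 9 the highest. At day 9, 26 of the 30 were below day 1 and 15 were called lower (limma, adjusted p below 0.05), against 10.7% of all tested genes. Their median change was −0.89, against 0.09 over all tested genes. The 30 genes passed the filter on low values through heterograft libraries only, so nothing is read from that count. These genes have no homograft transcript to set them against, and the share of scion and rootstock tissue in each library was not measured, so that its part in the levels was not tested.

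**Figure D5:**
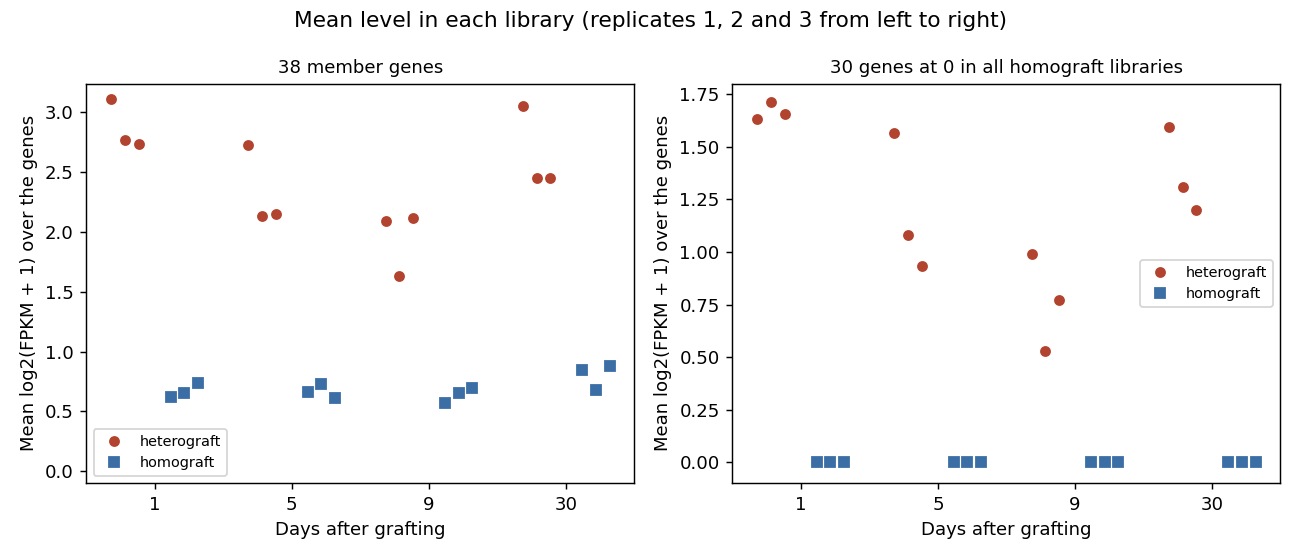
Mean log2(FPKM + 1) of the 38 genes (left panel) and of the 30 genes at 0 in all homograft libraries (right panel) at 1, 5, 9 and 30 days after grafting, 1 point for each library with replicates 1, 2 and 3 from left to right. In heterografts the 38 genes are highest in replicate 1 of day 1 (3.11) and lowest in replicate 2 of day 9 (1.63), and all homograft libraries lie between 0.57 and 0.88.

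As a description of likeness, the Pearson correlation of log2(FPKM + 1) between pairs of the 38 genes had a median of 0.55 over the 12 heterograft libraries and 0.01 over the 12 homograft libraries. It was above 0.5 for 402 of 703 pairs (57.2%) in heterografts and for 53 (7.54%) in homografts, against 13.8% and 15.2% of all tested pairs. The libraries of a pair share day and depth, and the few homograft reads of many members limit a correlation there.

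The opposite pattern was rarer. Over all tested genes, 69 lay above the homografts at all 4 days without overlap, 9 of which were at 0 in every homograft library. Only 9 genes lay below the homografts at all 4 days, and 0 of these had a difference of at least 0.5 at each day. At a single day the directions were more even, since 7549 genes lay above without overlap at exactly 1 day and 6894 below. Heterograft unions also hold "Qingzhen D1" rootstock, so the directions are not alike by design, and why the counts differ was not tested.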

How the data were processed

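RNA of graft-union stem tissue was sequenced as paired-end libraries on an Illumina platform. Cutadapt was used for trimming, HISAT2 for alignment to the genome of Pyrus bretschneideri and HTSeq for counting per gene, all by the authors. The deposited values are FPKM, made by the authors from those counts. How reads that align to several places were treated is not given in the sources used here, so near-identical copies of a gene could share or lose reads.

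Members were found as described at the start of the report. The members, the lists and the tests were chosen with earlier results of these data known. The reads behind the FPKM values could be computed back for each of the 32966 genes detected in 4 or more libraries (whole to within 0.02 reads). The implied lengths were all multiples of 3 among well-covered genes, and are given as coding lengths. FPKM values were tested as log2(FPKM + 1) with limma 3.58.1 in R 4.3.3 (1 mean for each of the 8 conditions, 24 libraries, 16 residual degrees of freedom, mean-variance trend). Genes with at least 1 FPKM in 3 libraries (26895) were tested, with Benjamini-Hochberg adjustment over all of them. Exact counting intervals (95%) and floors (3 reads over 3 libraries) cover counting error only. The methods of the study speak of 3 biological replicates, and how many unions each library pools is not given in the sources used here, so p-values measure the spread between these libraries. The test was checked on simulated data.

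Named genes were the 6 with the largest mean difference, the 6 with the highest heterograft FPKM, the 4 whose difference varied most and the 4 whose difference varied least between days, the 3 with the smallest p for change with day in each graft type, and the 2 on each side of the minimum difference. Alternatives were another pseudocount, filters, upper-quartile scaling, voom on recovered reads, a replicate block, fewer libraries in the fit and leaving out each library.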

Additional observations from a re-analysis of the deposited data

Results flagged for a closer look

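Pbr041573.1 had changes of opposite sign in the graft types between days 1 and 9, of which only that in homografts passed the test (limma, adjusted p = 0.163 in heterografts and 0.00472 in homografts). On the log2(FPKM + 1) scale its day 9 minus day 1 change was −0.30 in heterografts, where each library of day 9 was below each of day 1, and 0.64 in homografts, where each library of day 9 was above each of day 1. Heterografts had 9.10, 8.13 and 9.23 FPKM at day 1 and 7.64, 6.0 and 7.30 FPKM at day 9. Homografts had 3.04, 2.5 and 2.16 FPKM at day 1 and 4.89, 5.15 and 3.72 FPKM at day 9. The difference between the changes was not tested, because the choice of the gene used the differences of both days. With 3 libraries in each condition, single outlying libraries were not tested for.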

How the results depend on the processing

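No called change with day of a named gene reversed its sign under any alternative run. The share of members that changed with day in heterografts did move relative to all tested genes. It was above theirs in the main fit (63.2% against 48.4%). It was below theirs with a pseudocount of 0.1 (31.6% against 47.3%) and with only the 12 heterograft libraries (36.8% against 40.3%). The rule gave 23 genes with a filter of at least 5 FPKM, 23 with a minimum difference of 1 at each day and 58 with no minimum difference, and 36 to 54 with 1 library left out. The count of members that changed with day in heterografts was 12 with a pseudocount of 0.1 and 14 with only the 12 heterograft libraries, and 19 to 25 with 1 library left out. Members lower at day 9 than at day 1 in heterografts numbered 14 with a pseudocount of 0.1, and 17 to 26 with 1 library left out. For the genes chosen on 3 days, the count called at the remaining day was 15 of 89 for day 9 with a pseudocount of 0.1 (0.0967% of all tested genes). With the filter at 5 FPKM, 18, 27, 42 and 25 genes were chosen without days 1, 5, 9 and 30. Of these, 18, 16 and 13 were called at days 1, 5 and 30 (100%, 59.3% and 52.0%, against 10.5%, 0.485% and 0.160% of all genes passing that filter). Of the chosen genes, 17, 21, 26 and 21 did not overlap at the day left out (94.4%, 77.8%, 61.9% and 84.0%, against 20.4%, 8.90%, 5.09% and 6.24%). With only the 6 libraries of the day, limma called 13, 0 and 7 genes at days 5, 9 and 30, and 41 had an unadjusted p below 0.05 at day 9. With 1 library left out, the count called at day 9 ran from 2 of 74 (0.0112% of all tested genes) to 13 of 71 (0.0560%).

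Over all tested genes, libraries of 1 replicate number deviated little together within a graft type (correlations of −0.12 to 0.14 within heterografts and −0.12 to 0.10 within homografts, and 4 of 12 heterograft libraries correlated best with their own number). Between graft types at the same day, correlations for the same number were −0.10 to 0.18, with 4 of 12 above 0.1. For different numbers they were −0.18 to 0.19, with 1 of 24 above 0.1. The numbers were not taken as pairs, although heterograft replicate 1 was the highest library for 23, 29 and 33 of the 38 members at days 1, 5 and 30. With the replicate number as a block, 24 of the 38 members changed with day in heterografts and 3 in homografts, and 23 were lower at day 9 in heterografts. The shares of all tested genes for these counts in that fit are not given here. At days 1, 5, 9 and 30 left out, 36 of 38, 26 of 49, 8 of 74 and 23 of 50 genes were called. Of all tested genes, 8.35%, 0.420%, 0.0335% and 0.223% were. Depth limits the homograft values, since 16 members rest on 12 or fewer homograft reads, and graft type and scion genotype cannot be told apart.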
